A study of Mus musculus with 10 samples.

Results

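Wild-type mouse embryonic stem cells (ESC) and the embryoid bodies (EB) grown from such cells were compared site by site for how efficiently a short sequence motif in their messenger RNA was cut. The deposited table lists 1626 sites. Every site with a value in both wild-type (WT) columns was taken, 1071 in all, and the difference EB minus ESC was formed at each. A further 203 sites had a value in ESC WT only and 223 in EB WT only, which gave 1497 sites described here, and 129 sites had no WT value. The 10 polyA RNA libraries were 3 of ESC WT, 2 of EB WT, 3 of ESC without Mettl3 (Mettl3-/-, the knockout or KO) and 2 of EB without Mettl3. ESC were expanded with serum and LIF on inactivated fibroblast feeders, then passaged on gelatin without serum in N2B27 medium with LIF and the inhibitors CHIR99021 and PD0325901. EB were kept in suspension for 9 days in serum medium without LIF or inhibitors. Stage therefore came with a change of medium, and the 2 cannot be told apart. The labels give no strain, clone number or shared culture, and EB are aggregates of differentiating cells of several kinds.

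The values are cleavage efficiencies, fractions from 0 (no molecule cut at the site) to 1 (all cut). As background, the RNase MazF cuts RNA before the sequence ACA and does not cut when its first A carries N6-methyladenosine (m6A), so a methylated site gives a low efficiency. No label used here names the enzyme. Mettl3 is the catalytic subunit of the complex that writes m6A, the most abundant internal mark of messenger RNA, and the KO columns give the efficiency of each site where that writer is missing. Methylation speeds decay of many transcripts that hold stem cells in their state, and loss of Mettl3 is known to hinder exit from naive pluripotency.

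The table gives 1 column per group, with no value per library and no read number. No test between stages could be made, no SD is given, and "higher" and "lower" below compare 2 group values whose error over cultures is unknown. As a yardstick, the same EB minus ESC difference was taken in KO at the 845 sites with both KO values. A difference was counted from 0.10, itself included, in either direction. Of the defining markers, 0 of 6 for pluripotency, 0 of 5 for mesoderm, 0 of 4 for ectoderm and 0 of 5 for feeder fibroblasts had a listed site, against 2 of 5 for endoderm (Gata4 and Sox17). Efficiency is not expression, so the cell types named by the labels could not be checked.

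The sites with the widest differences show what was measured. Each line gives the 11 deposited bases around a site, 5′ to 3′ on the RNA strand with T for U. Capitals mark the motif GGACA or AGACA, in which the ACA is cut. The first 6 had a higher efficiency in EB and the last 5 a lower one.
Mdm2: gcaGGACAaag
Fnbp4: gcaAGACAccc
Scaf11: gcgAGACAgag
Abl1: gagAGACAagc
Gata4: tggGGACAtaa
Plbd2: aggGGACAtta
Banp: ttcAGACAgac
Ccdc88c: gagGGACAagc
Tfdp2: taaAGACAgga
Tanc1: catGGACAaga
Piezo1: agtGGACAcgt
Both motif forms occur on both sides. Among the 12 largest upward differences, 7 were at GGACA and 5 at AGACA, and among the 12 largest downward differences 6 were at each. GGACA made up 62.1% of all 1071 sites compared, so these counts set neither motif apart.

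Across the 1071 sites, the median efficiency was 0.442 in ESC WT and 0.537 in EB WT. The difference EB minus ESC had a median of 0.0408, with an interquartile range of -0.00508 to 0.108, and a 95% order-statistic interval of the median over sites of 0.0337 to 0.0455. Efficiency was higher in EB at 760 sites (71.0%), lower at 292 and equal at 19. It was higher by at least 0.10 at 283 sites, which is 26.4% of those compared, and lower by at least 0.10 at 59, which is 5.51%. In KO, 60 of 845 sites were higher by that size (7.1%) and 94 lower (11.1%), with a median of 0. At the 759 sites with all 4 values the WT counts were 192 higher (25.3%) and 37 lower (4.87%), against 48 (6.32%) and 85 (11.2%) in KO. Sites uncut in the deposited values numbered 43 in ESC WT and 31 in EB WT, and sites at 1 numbered 0 and 7.

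The upward direction depends on the level set for each column. Over the 759 complete sites the column medians were 0.452 in ESC WT and 0.548 in EB WT, and subtracting them lowers every WT difference by 0.0963. The median of the site-by-site WT differences at these sites was smaller, 0.0414, with 73.1% of sites higher in EB. The subtraction takes off more than that median, so a negative median follows from it by construction. The overall median then turns to -0.0555, 27.4% of sites are higher in EB, and the counts past 0.10 become 82 higher and 277 lower. Subtracting the medians of the KO columns instead, 0.825 in ESC and 0.814 in EB, gives a WT median of 0.0515 with 77.7% of sites higher. The origin of this column shift was not tested. In what follows "higher" refers to the deposited values, and any upward difference below 0.0963 changes sign with the WT column medians subtracted.

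**Figure D1:**
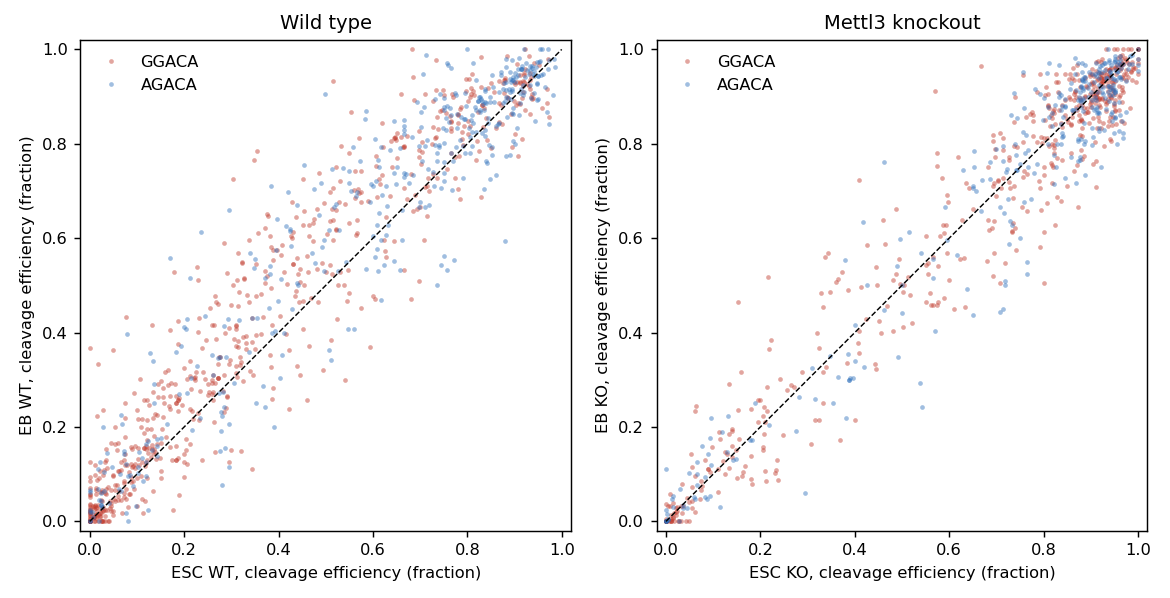
Cleavage efficiency (fraction cut) in ESC on the x axis and EB on the y axis, 1 point per site, for WT (1071 sites) and KO (845 sites), with the line of equality. WT points lie more above the line than below it (283 higher and 59 lower by 0.10 or more). Subtracting WT column medians, a shift of 0.0963 against a median site difference of 0.0408, turns this direction over. KO points lie on both sides (60 and 94).

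Sites kept much of their order between stages. Over the 1071 sites Pearson's r between ESC WT and EB WT was 0.952 and Spearman's rho 0.95, as a description across sites of the same libraries. For KO these were 0.969 and 0.899 over 845 sites. The differences themselves went together little: over the 759 complete sites, the WT difference and the KO difference had r of 0.136 and rho of 0.109. Of the 192 complete sites higher by 0.10 in EB WT, 149 (77.6%) differed by less than 0.10 in KO, 22 were also higher and 21 were lower there. Of all 759 complete sites, 626 (82.5%) differed by less than 0.10 in KO, 6.32% were higher and 11.2% lower. Of the 37 lower sites, 25 differed by less than 0.10 in KO, 9 (24.3%) were also lower and 3 higher.

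Sites of middle efficiency in ESC passed upward more often than downward. Of 527 sites between 0.2 and 0.8 in ESC WT, 93 (17.6%) were at 0.8 or more in EB WT and 18 (3.42%) were under 0.2. From under 0.2, 64 of 317 sites (20.2%) reached the middle range and 0 reached 0.8, while 208 of the 227 sites at 0.8 or more (91.6%) were there in both stages. Sites at 0.8 or more thus numbered 227 (21.2%) in ESC WT and 301 (28.1%) in EB WT. At the complete sites, 67 middle sites of WT (18.3%) passed to 0.8 or more in EB and 10 to under 0.2. Of KO middle sites 27 (12.1%) passed upward and 13 downward. From 0.8 or more, 11 of 171 WT sites and 40 of 416 KO sites passed down to the middle range.

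The size of the WT difference followed the mean of the 2 WT values. It was 0.00479 at the median below a mean of 0.1, 0.0321 from 0.1 to 0.2, and 0.0650 from 0.2 to 0.4. The widest median, 0.113 (95% interval over sites 0.0846 to 0.140), stood from 0.4 to 0.6, where 83 of 154 sites were higher by 0.10 and 15 lower. It was 0.0806 from 0.6 to 0.8, 0.0506 from 0.8 to 0.9 and 0.0196 above that. The KO medians in the same ranges of the KO mean lay between -0.0123 and 0.00111. A fraction near 0 or 1 has little room to move, so the yardstick was also taken by range. Within a mean of 0.2 to 0.8, the 95th percentile of the absolute KO difference was 0.219 over 258 sites. There, 53 of 515 WT sites (10.3%) were higher by more than that and 6 (1.17%) were lower. Subtracting WT column medians lowers all of these WT medians by the same 0.0963, so those below it turn negative and their order stays as given.

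**Figure D2:**
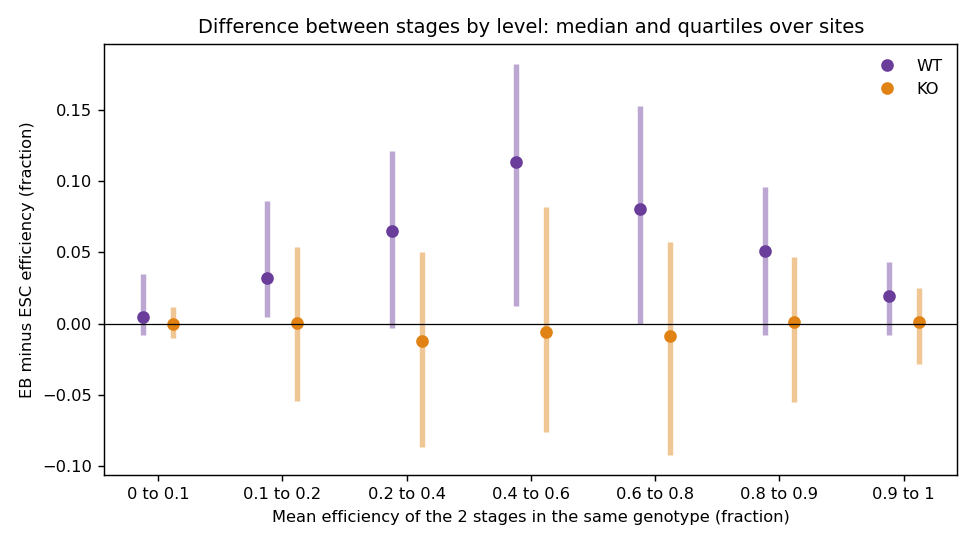
Median EB minus ESC difference in efficiency (fraction) on the y axis against the range of mean efficiency of the 2 stages on the x axis, for WT and KO, with bars from the lower to the upper quartile over sites. The WT median is widest at 0.4 to 0.6 (0.113), and every WT median below 0.0963 turns negative when the column shift is subtracted from all sites alike.

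The knockout shows how efficiently a site can be cut without the writer, and the stage difference was read beside it. By mean KO efficiency, the WT difference had a median of 0.0113 at 121 sites below 0.2, where cutting is poor in KO too, 0.0659 at 75 sites from 0.2 to 0.5, 0.0656 at 151 sites from 0.5 to 0.8 and 0.0444 at 412 sites above that. Sorted by the gap KO minus WT, which shares the WT values with the difference, the WT difference was 0.0246 at 317 sites with a gap under 0.05, 0.0713 at 87 sites with 0.2 to 0.4, and 0.0184 at 64 sites with more than 0.6. Sites with the widest gap thus had a small median stage difference, as did sites with a gap under 0.05, which include those with WT above KO. At the widest gap the WT medians were low, 0.134 in ESC and 0.150 in EB. Dividing WT by KO of the same stage at the 627 sites with both KO values at 0.20 or more gave a median ratio of 0.768 in ESC and 0.897 in EB. Where WT lay above KO, the ratio was capped as if WT equalled KO. The median of the EB minus ESC difference in this ratio, taken site by site, was 0.0499. The capped ratio was higher in EB at 445 sites (71.0%), lower at 143 and equal at 39. Past 0.10 it was higher at 218 and lower at 34.

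Sequence and place divided the level of a site more than its stage difference. At the 665 GGACA sites the median efficiency was 0.311 in ESC WT and 0.382 in EB WT, and at the 406 AGACA sites 0.696 and 0.747. The median differences were 0.0409 (95% interval over sites 0.0326 to 0.0509) and 0.0404 (0.0289 to 0.0476), and 185 and 98 sites were higher by 0.10. By the base after ACA, the ESC WT median ran from 0.245 before G to 0.747 before A, and the difference from 0.0303 before T to 0.0611 before C. Of the authors' deposited classes, low sites had a difference of 0.0319 (182 sites), intermediate 0.0365 (322), high 0.0465 (490) and highest 0.0409 (77). All of these medians turn negative with WT column medians subtracted.

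In transcripts, 3′ UTR sites had the widest median difference of the regions, 0.0536 over 281 sites, with 94 higher and 13 lower by 0.10. The 5′ UTR gave 0.0486 (85 sites, 27 higher, 5 lower), noncoding transcripts 0.0446 (49 sites) and coding sequence 0.0334 (514 sites, 122 higher, 27 lower), and each turns negative with WT column medians subtracted. m6A is known to be scarce close to exon junctions, and cutting was high there: within 100 nt of a junction the median was 0.747 in ESC WT and 0.798 in EB WT. Beyond 400 nt it was 0.348 and 0.399. The difference was 0.0403 within 100 nt, 0.0446 between 100 and 400 and 0.0424 beyond, and it too turns negative with the column medians subtracted. Within coding sequence alone it was 0.0368 and 0.0381 at the nearer distances and 0.0180 at the 78 sites beyond 400 nt, with a 95% interval over sites of -0.00804 to 0.0438.

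Among the 12 largest upward differences, Fnta, a farnesyltransferase subunit, went from 0.303 to 0.725 in WT and from 0.426 to 0.585 in KO. Its sequence lies 3 nt from an exon junction (mm9 chromosome 8, position 27124025, minus strand), and EB was the higher stage in both genotypes.

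Mdm2, the ubiquitin ligase that restrains p53, had its site in the coding part of the last exon (mm9 chromosome 10, position 117127480, minus strand). It was 0.347 in ESC WT and 0.767 in EB WT, while the KO values were 0.947 and 0.929. Abl1, a tyrosine kinase, was 0.235 and 0.613 in WT at a 3′ UTR site (chromosome 2, position 31657535, plus strand), with KO values of 0.929 and 0.957. Plbd2, a lysosomal protein, was 0.179 and 0.528 in its 3′ UTR (chromosome 5, position 120935378, minus strand), with 0.953 and 0.947 in KO. At these 3 sites KO was nearly fully cut at both stages, and WT stood below KO at both, less so in EB.

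Fnbp4 and Scaf11 differed from them. Fnbp4 was 0.498 in ESC WT and 0.905 in EB WT at a coding site 38 nt from a junction (chromosome 2, position 90597806, plus strand), with 0.837 and 0.8 in KO. Scaf11, a splicing-associated protein, was 0.170 and 0.557 in WT (chromosome 15, position 96249267, minus strand) and 0.365 and 0.306 in KO. In both, EB WT lay above EB KO, as it did for Fnta. Pcmtd1 was 0.383 and 0.711 in WT, 0.630 and 0.744 in KO.

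Of the 12 largest upward differences, 4 lacked at least 1 KO value. Gata4, a transcription factor of endoderm and heart, was uncut in ESC WT (0) and 0.368 in EB WT, at a site 16 nt before the end of its coding sequence (chromosome 14, position 63819228, minus strand). The 3′ UTR sites of Ube2o, a ubiquitin-conjugating enzyme, and Cnpy3 went from 0.516 to 0.933 and from 0.0769 to 0.432. Dnajc11 was 0.295 and 0.660, with 0.722 in ESC KO. Of the 8 sites of the 12 with both KO values, 5 differed by less than 0.10 in KO and 3 were higher by at least that.

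Sites lower in EB were fewer, and their 12 largest differences ran from -0.285 to -0.188, against at least 0.328 for the 12 largest upward. Banp, a nuclear matrix-associated protein, was 0.879 in ESC WT and 0.594 in EB WT in its 3′ UTR (chromosome 8, position 124549764, plus strand). March2, a membrane ubiquitin ligase, was 0.735 and 0.5, and the long noncoding RNA Tug1 0.595 and 0.368. Neither of these, nor Banp, had a KO value. Ankhd1 was 0.343 and 0.111 with 0.423 in ESC KO, and 4931406P16Rik 0.757 and 0.533 with 0.796.

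Among lower sites with both KO values, Tanc1, a postsynaptic scaffold protein, was 0.459 in ESC WT and 0.258 in EB WT in its last exon (chromosome 2, position 59681783, plus strand), and 1 in both KO columns. Piezo1, a mechanically gated ion channel, was 0.697 and 0.509 at a site 17 nt before the end of its coding sequence (chromosome 8, position 125005899, minus strand), with 0.840 and 0.836 in KO. Tfdp2, a partner of E2F factors, was 0.773 and 0.555, 3 nt after its coding sequence (chromosome 9, position 96218393, plus strand), with 0.868 and 0.948 in KO. At these 3 the KO values were high at both stages and EB WT lay farther below KO than ESC WT did. Wdr24 was 0.744 and 0.543 in WT and 0.968 and 0.824 in KO, so both genotypes were lower in EB. Naa15 was 0.680 and 0.471 in WT and 0.622 and 0.556 in KO, and Zbed6, which lies within an intron of Zc3h11a, was 0.39 and 0.2 against 0.188 and 0.250. All 24 sites of the largest differences kept their direction and a size of 0.10 with either set of column medians subtracted.

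**Figure D3:**
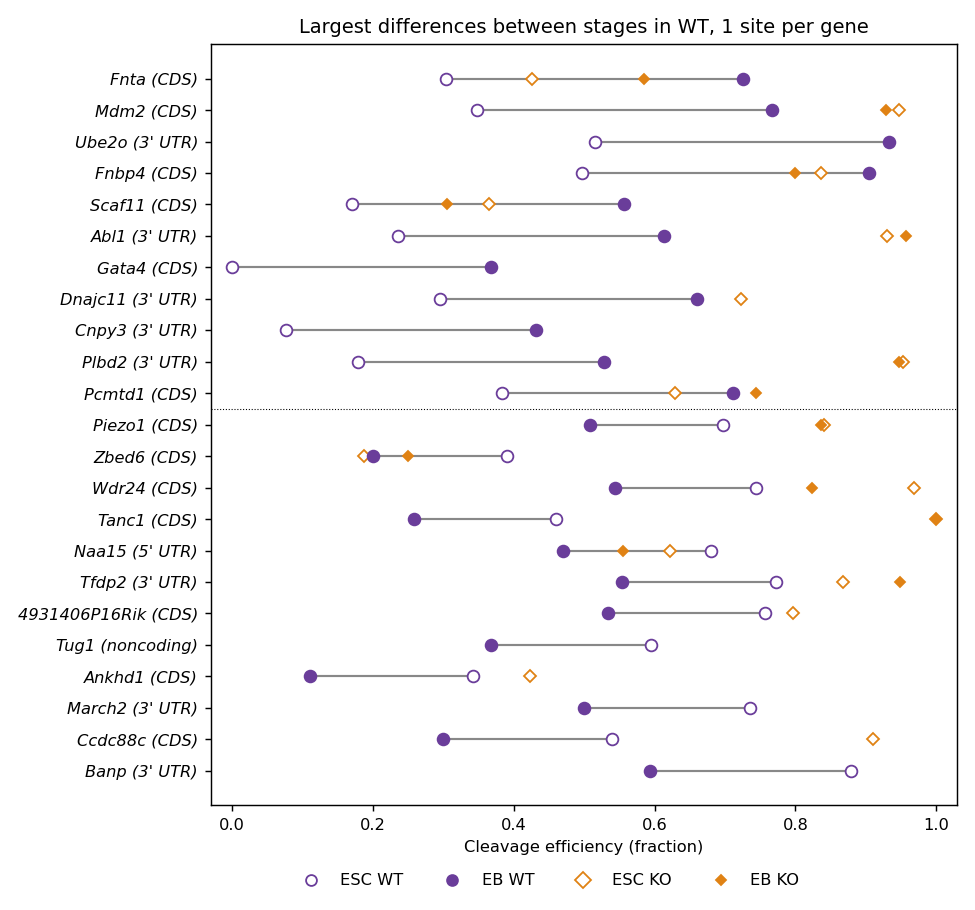
Cleavage efficiency (fraction, x axis) in ESC WT, EB WT, ESC KO and EB KO at 11 of the 12 sites with the largest upward and the 12 with the largest downward WT difference, 1 row per site, absent points being sites with no KO value. For Mdm2, Abl1 and Plbd2 the EB WT point lies between ESC WT and both KO points, while for Tanc1 and Piezo1 it lies farther from the KO points than ESC WT.

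Several sites in a gene often differed. Of 95 genes with at least 2 sites in both WT columns, 47 (49.5%) were higher in EB at all of them, 7 lower at all and 41 mixed, and the median range of the difference within a gene was 0.0910. With WT column medians subtracted these counts turn to 6 higher at all, 51 lower at all and 38 mixed. Fat1, a large cadherin, was higher by at least 0.10 at all 3 of its sites (chromosome 8, plus strand), whose sequences are shown because they share a gene and not their flanks.
Fat1, position 46038584: caaAGACAaag
Fat1, position 46126128: aagGGACAaag
Fat1, position 46136396: cagGGACAtgc
In ESC WT and EB WT the first was 0.514 and 0.747, the second 0.407 and 0.585 and the third 0.100 and 0.236. KO was 0.919 and 0.918 at the first, 0.935 and 0.922 at the second and 0.642 and 0.707 at the third. EB WT thus lay above ESC WT at all 3, most at the first, while the KO columns differed by less than 0.10 at each. Eml4, Lrch4, Nfyc, Nolc1 and Scaf11 were also higher by 0.10 at both of their sites. Unlike Fat1, some of these genes differed past 0.10 in KO too. The KO difference was -0.144 and -0.166 at the Lrch4 sites, -0.139 at Scaf11 position 96251128 and 0.134 at Eml4 position 83879433. Their other KO differences were under 0.10 in size, and an Nfyc site lacked an EB KO value. Zbed6 was the single gene lower by 0.10 at each of its sites, the second being 0.286 in ESC WT and 0.156 in EB WT, with 0.119 and 0.190 in KO.

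Ccdc88c and Ranbp3 had 1 site past 0.10 in each direction. Ccdc88c, a protein that binds Dishevelled, was 0.417 in ESC WT and 0.625 in EB WT at one site and 0.540 and 0.300 at the other. ESC KO was 0.881 and 0.911 at these, so both were well cut without the writer. Ranbp3, a cofactor of nuclear export, was 0.364 and 0.483 at one and 0.574 and 0.452 at the other. Neither gene's pair of opposite signs is altered by a shift of the column, since both differences exceed 0.0963 in size.

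Of the other genes with at least 3 sites, some held differences in both directions, while Cpsf2, Ppp4r1 and Slc2a3 were higher in EB at every site. Some of the differences were past 0.10. The 3 coding sites of Ahnak, a very large scaffold protein, had differences of 0.0195, -0.0516 and -0.0866, and those of Ckap4 -0.0119, 0.048 and -0.00699. In Arid1a, a SWI/SNF subunit, they were -0.0833, 0.0216 and -0.0657. Cpsf2, a factor of 3′ end cleavage, ran from 0.0230 to 0.0948. Ppp4r1 ran from 0.0056 to 0.136 and Slc2a3, a glucose transporter, from 0.0108 to 0.115. Ranbp2, a nuclear pore protein, ran from -0.174 to 0.0259, and Ipo8, an import receptor, from -0.180 to 0.0403.

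Genes were then grouped by role, and the count of each list is given beside the background of 26.4% higher and 5.51% lower by 0.10 at all 1071 sites and the overall median of 0.0408. Among lists with more than 1 site in both WT columns, the widest medians were those of pluripotency and matrix genes. Of 6 sites in pluripotency and LIF signalling genes, 3 were higher and 1 lower by 0.10. The median was 0.118 (95% interval over sites -0.132 to 0.253), which is 0.0216 after subtracting WT column medians. Lifr, the LIF receptor, was 0.486 in ESC WT and 0.739 in EB WT at a 3′ UTR site. Tbx3, a transcription factor of naive cells, was 0.549 and 0.718 in its 5′ UTR, and Zfp281, a regulator of exit from the naive state, 0.382 and 0.524 with 0.879 and 0.810 in KO. Stat3, which carries the LIF signal to the nucleus, was 0.974 and 0.841. Il6st, the shared coreceptor, was 0.0571 and 0.152 at one 3′ UTR site and had ESC WT alone (0.295) at the other. Tet1, which oxidises 5-methylcytosine, was 0.288 and 0.348, and Tet2 had ESC WT alone at 0.0244.

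All 10 sites in basement membrane, matrix and adhesion genes were higher in EB as deposited, against 71.0% of all sites, and 6 were higher by 0.10. The 10 sites lie in 8 genes, and 3 of the 6 are the Fat1 sites shown above. Their median was 0.130, which is 0.0336 after subtracting WT column medians. Itga5, the fibronectin receptor subunit, was 0.375 and 0.652 in the 5′ UTR of its matched transcript, with 0.414 in ESC KO. The coding sequence of that transcript is short, and the site's place in other transcripts of the gene was not checked. Lamb1, a laminin chain, was 0.571 and 0.811 with 0.929 and 0.949 in KO. P4ha1, a collagen prolyl hydroxylase, was 0.758 and 0.881. Smaller differences stood at Nid2 (0.0902), Hspg2 (0.0794), Lamc1 (0.0568) and Itgb1 (0.0237). In KO, 9 of these sites had a median difference of 0.0150, with 2 higher by 0.10 and 0 lower. Of 21 feeder fibroblast genes none had a site.

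Germ layer genes gave few sites. Of 88 on the list, Gata4 had both WT values. Dab2, an endocytic adaptor of extraembryonic endoderm, and Sox17, an endoderm transcription factor, had EB WT alone, at 0.0245 and 0.271. The only primed-state gene with a site was Dnmt3a, the de novo DNA methyltransferase, with EB WT values of 0.264 and 0.926.

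The m6A machinery had 8 sites, of which 1 was higher by 0.10 and 0 lower, and the median of 0.0174 turns to -0.0789 with WT column medians subtracted. Prrc2a, a proposed reader, was 0.455 in ESC WT and 0.755 in EB WT at one site and 0.380 and 0.452 at another. Ythdc1, the nuclear reader, was 0.921 and 1. The cytoplasmic readers Ythdf1 and Ythdf2 are paralogs, and each held the same 11 bases at a site in coding exon 4, the reason for showing them with the neighbouring Ythdf2 sites.
Ythdf1, chromosome 2, position 180646775: tatGGACAact
Ythdf2, chromosome 4, position 131761493: tatGGACAact
Ythdf2, chromosome 4, position 131761262: gatGGACAgtc
Ythdf2, chromosome 4, position 131760647: gtaGGACAgtc
The shared sequence was 0.250 in ESC WT and 0.268 in EB WT in Ythdf1, and 0.321 and 0.338 in Ythdf2. KO was 0.921 and 0.949 in Ythdf1, 0.924 and 0.895 in Ythdf2. Ythdf2 thus lay above Ythdf1 in both WT columns with stage differences of 0.0173 and 0.0176, though how the authors treated reads that fit both genes is not given. The other Ythdf2 sites were 0 and 0.0171, and 0.199 and 0.125. KO was 0.707 and 0.823 at the former, and 0.732 and 0.612 at the latter. The KO columns thus differed past 0.10 at each, in opposite directions. Virma, a subunit of the writer complex, had EB WT alone (0.595).

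In RNA splicing genes, 6 of 12 sites were higher by 0.10 and 0 lower, and the median of 0.0931 turns to -0.0032 with WT column medians subtracted. The 6 were both Scaf11 sites (the second 0.476 and 0.705), Srsf11 (0.759 and 0.967), Srsf4 (0.797 and 0.937), Scaf4 (0.606 and 0.722) and 1 of 2 Son sites (0.503 and 0.608). Srsf proteins bind exonic enhancers, and Son is a core protein of nuclear speckles. Srsf11 in EB WT thus stood at the level of its KO values, 0.968 and 0.969.

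Chromatin and transcription regulators gave the most sites, and their share was near the background. Of 27 sites, 8 were higher by 0.10 and 0 lower, with a median of 0.0374. The widest were Chd4, the NuRD remodeller (0.557 and 0.793 in its 3′ UTR), Nsd2, a histone methyltransferase (0.531 and 0.721), and Sin3a, a corepressor scaffold (0.667 and 0.829). In KO the Chd4 site was 0.793 in ESC and 0.906 in EB, and the Sin3a site 0.873 and 0.810. Nsd2 had ESC KO alone, at 0.321, which is below both of its WT values. A second Chd4 site was 0.730 and 0.710. The 25 sites with KO values had a KO median of -0.0306, with 1 higher and 3 lower by 0.10, the 1 higher being the first Chd4 site.

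Among signalling genes 3 of 12 sites were higher by 0.10 and 0 lower, with a median of 0.0690. Hes1, the Notch target, was 0.647 and 0.814, and Ski, a Smad corepressor, 0.412 and 0.529. In KO Hes1 was 0.803 and 0.904, so it was higher in EB by 0.10 there too, and Ski was 0.917 and 0.895. Tcf3 was 0.804 and 0.938 in WT, and lower in EB in KO, at 0.827 and 0.687, so EB WT lay above EB KO. The symbol Tcf3 stands for the E protein gene, and Taz on the same list is tafazzin. Neither is the Wnt or Hippo factor that shares its name. Yap1, the Hippo effector, was 0.366 and 0.286.

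The 4 lists of housekeeping roles had medians from 0.0163 to 0.0623, around the overall one. In translation genes 2 of 8 sites were higher, the median being 0.0514, with Rps6kb1, the S6 kinase, at 0.438 and 0.645 and Eif4g1, the cap-complex scaffold, at 0.144 and 0.291. Glycolysis, cytoskeleton and chaperone genes had 2 of 6 higher, among them Slc2a3, and a median of 0.0623. Endoplasmic reticulum genes had 1 of 8 higher (Creld2, 0.351 and 0.545), 1 lower (Pdia6, 0.239 and 0.131) and a median of 0.0233. Cell cycle genes had 2 of 12 higher, Mdm2 and Orc1 (0.231 and 0.431), none lower, and a median of 0.0163. The cyclin gene Ccnd1 held 2 sites near the end of its coding sequence, at 0.311 and 0.330, and at 0.217 and 0.235. Their KO values were 0.971 and 0.948 at the first, 0.139 and 0.136 at the second, so neighbouring sites of like WT efficiency had KO values near opposite ends. Subtracting WT column medians lowers every list median by the same 0.0963, so those below it turn negative, which does not set any list apart.

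**Figure D4:**
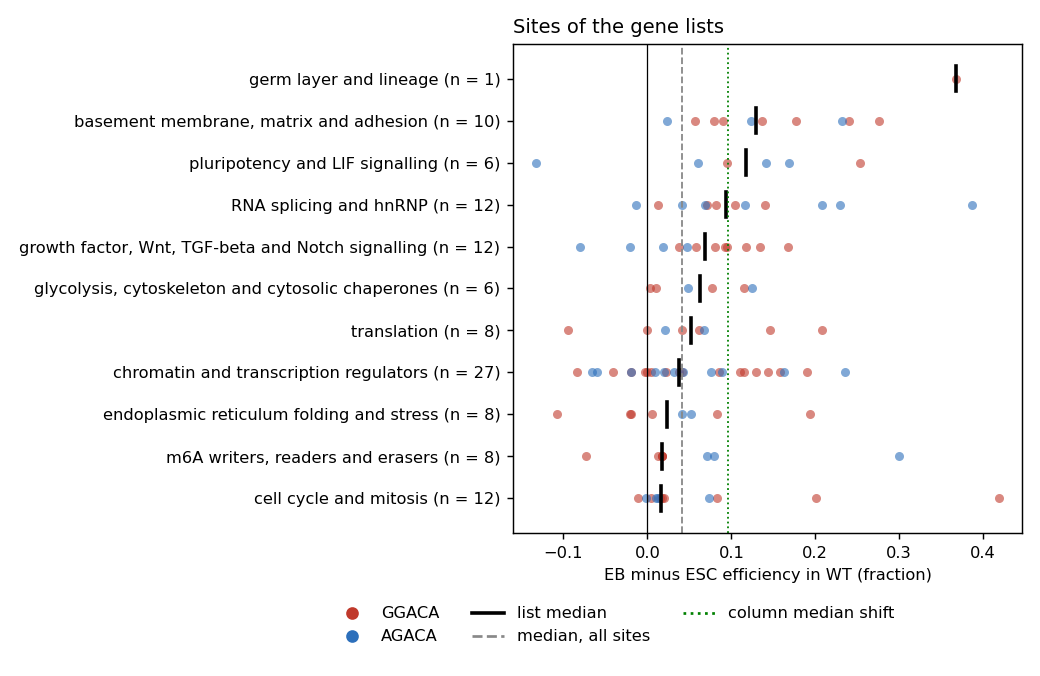
EB minus ESC difference in WT efficiency (fraction, x axis), 1 point per site, coloured by motif, for each gene list (rows), with the list median as a bar and lines at the overall median of 0.0408 and at the column shift of 0.0963. Medians run from 0.0163 (cell cycle) to 0.368 (the single Gata4 site), and those left of the column shift turn negative when it is subtracted from all sites alike.

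A site can also have a value at 1 stage only. The 203 sites with ESC WT only make up 12.5% of the table and had a median of 0.411, and the 223 with EB WT only make up 13.7% and had a median of 0.574. The rule by which a value was listed is unknown from the labels and the file. In bulk RNA a site may lack a value through fewer cells of a type or less RNA per cell, and these cannot be told apart. KO coverage followed the stage: of ESC-only sites, 109 (53.7%) had an ESC KO value and 28 (13.8%) an EB KO value, with 83 covered in ESC KO alone and 2 in EB KO alone. Of EB-only sites, 61 (27.4%) had an ESC KO value and 74 (33.2%) an EB KO value, with 24 and 37 covered in 1 alone. Over the whole table the shares were 75.3% and 56.5%, so the EB KO column is the sparser. GGACA made up 60.6% of ESC-only, 59.6% of EB-only and 62.1% of shared sites. Of 5′ UTR sites 5.98% had ESC WT only and 14.5% EB WT only, and of 3′ UTR sites 13.2% and 16.5%.

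**Figure D5:**
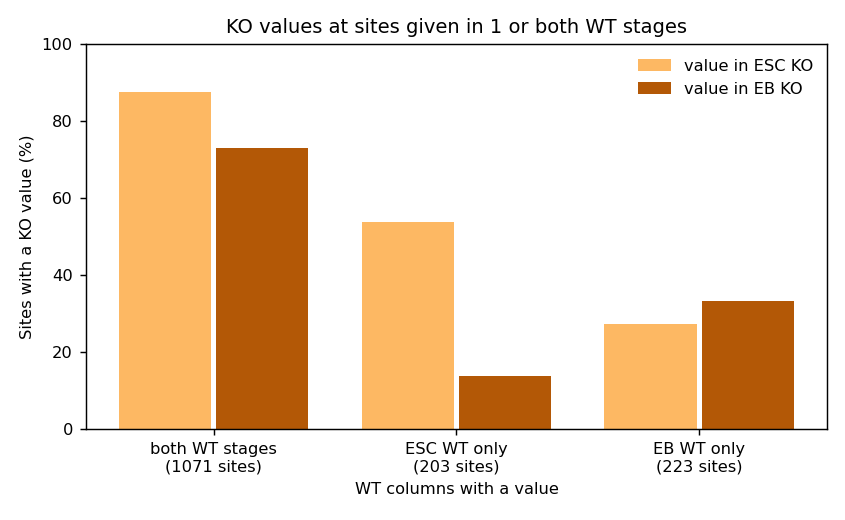
Sites of the deposited table by WT coverage (both stages, ESC only, EB only, on the x axis) and the percent of each (y axis) with a value in ESC KO and in EB KO. Of ESC-only sites 53.7% had an ESC KO value and 13.8% an EB KO value, against 27.4% and 33.2% of EB-only sites.

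Genes with several sites all covered at 1 stage numbered 9 for ESC and 10 for EB. In ESC WT only these were Aff1, a transcription elongation protein (0.241, 0.885 and 0.436), Hap1 (0.138, 0.152 and 0.0793), Mitf, a bHLH transcription factor (0.553 and 0.220), Cobl, an actin nucleator (0.160 and 0.5), Thoc2, an mRNA export protein (0.405 and 0.868), Nynrin, Cdkl2, Sugp2 and AI464131. Aff1 had ESC KO values of 0.922, 0.968 and 0.966. In EB WT only they were Vegfa, Wnt11, Ccn1, Dnmt3a, Arl4c, Camsap2, Gprasp1, Mtcl1, Pskh1 and Usp32. Vegfa, the angiogenic growth factor, is shown for its 3 sites in 3 parts of the transcript (chromosome 17, minus strand).
Vegfa 5′ UTR, position 46168931: gagGGACAggg
Vegfa coding sequence, position 46168463: cgcAGACAgtg
Vegfa 3′ UTR, position 46155296: gggAGACAatg
They were 0.431, 0.158 and 0.625 in EB WT. ESC KO had values at the first (0.735) and the last (0.880), so lack of an ESC WT value did not mean lack in all stem cells. Wnt11, a secreted Wnt ligand, was 0.265 and 0.969, and Ccn1, a secreted matrix protein, 0.629 and 0.177, both with no KO value.

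One-stage coverage was not always a matter of the whole gene. Of the 177 ESC-only sites with a gene name, 19 (10.7%) lay in a gene with another site in both stages, and so did 21 of 203 EB-only sites (10.3%). Scaf8 and Wdfy3 each held sites of both one-stage kinds. In Scaf8 the ESC-only site was 0.340 and the EB-only site 0.2, with KO values at both stages for each. Another Fat1 site had ESC WT only (0.788), although its other sites were covered in both.

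The one-stage sites covered the whole range of efficiency. The highest in ESC only were Med13l (1), Trak1 (0.971), Bms1 (0.958), Itm2a (0.957) and Ppfia1 (0.939), and in EB only App (1), Arl4c (1), Podxl (0.976), Wnt11 and L3mbtl3 (both 0.969). The lowest were listed at 0, for Gm21985, Pygb, Top3a and Slfn8 in ESC only, next to Hmgxb3 at 0.0161, and for Trim2, Asph, Pskh1, Ano10 and Rbmx in EB only. Each of these 10 highest sites was at AGACA.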

How the data were processed

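The values come from 1 series-wide table. It holds, per the file headers, cleavage efficiencies that the authors deposited as a fraction from 0 to 1, 1 for each group at each site, besides position, strand, 11-base sequence, transcript and class. Class names are given without their deposited prefix. The submitters' processing notes name STAR 2.5.3a, bedtools 2.26.0 and mm9 without their roles. Not given in the sources used here are the counting of reads, their minimum, and how a group's libraries were joined into 1 column; depth is therefore unknown. The table held 0 value columns of no group.

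Tests between stages need a value per library, and none was run. Differences EB minus ESC were taken on the fraction with no filter or pseudocount, and checked on simulated data. Medians have 95% order-statistic intervals over sites, which say nothing of cultures.

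Sites were matched by their 11 bases (the A of ACA is base 6) to GENCODE M21 transcripts on the same chromosome and strand, at most 100 nt away in the transcript and 10 Mb away in the genome from the deposited positions, with neighbours required to share the build offset. Of 1626 sites 1473 matched 1 gene and 1423 (96.6%) were kept, in 1232 genes; 54 matched on the opposite strand. Coordinates are the table's, mm9 and 1-based at the A of ACA; sequences are the table's, and sites on 1 chromosome are shown without. Exons, regions and distances are those of the matched transcripts.

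The members, the 13 gene lists and the rules were chosen with earlier results of these data known. Named sites are the 12 largest differences each way (1 per gene), up to 3 per list and direction past 0.10, genes with at least 3 sites, and, of one-stage sites, list members, genes with several and the 5 highest and lowest. A few sites these rules take are not reported here but count in totals. Other list members, and genes with 2 sites past 0.10, were named after their values were seen. Python 3.11.15, pandas 2.3.3, scipy 1.17.1 and matplotlib 3.10.9 were used.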

Additional observations from a re-analysis of the deposited data

How the results depend on the processing

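Depth and library spread are unknown here, so the reads behind a fraction limit every value to an unstated extent. No paired analysis was possible because the table holds 1 column per group, and leaving out each replicate in turn was not run for the same reason. Centring every column on its own median at complete sites turned the WT difference to -0.0555 at all sites, -0.0555 for GGACA, -0.0559 for AGACA, -0.0645, -0.0598, -0.0498 and -0.0555 for the low, intermediate, high and highest class, -0.0477 for 5′ UTR, -0.0629 for coding sequence, -0.0428 for 3′ UTR, and -0.0560, -0.0517 and -0.0539 for the 3 junction distances from near to far. Among lists it turned m6A genes to -0.0789, chromatin to -0.0589, splicing to -0.0032, translation to -0.0449, endoplasmic reticulum to -0.0730, cell cycle to -0.0801, signalling to -0.0273 and glycolysis to -0.0340, and moved matrix to 0.0336, KO to 0.0107 and the counts past 0.10 to 82 higher and 277 lower. These shifts follow from the subtraction itself. With complete sites alone, the endoplasmic reticulum median turned to -0.00718 and 37 sites were lower by 0.10, fewer sites being compared.

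Sites with a mean of 0.05 to 0.95 gave 0.0505 at all sites, 0.0564 for GGACA, 0.0651 for the high class, 0.0433 for coding sequence, 0.0683 for 3′ UTR and 0.0646 for 100 to 400 nt from a junction. The mean in place of the median gave 0.0518 at all sites, 0.0547 for GGACA, 0.0510 and 0.0464 for the low and intermediate class, 0.0486 for coding sequence, 0.0524 within 100 nt of a junction and -0.00591 in KO. Subtracting KO column medians, a choice made after seeing the data, gave 0.0515 at all sites, 0.0516 for GGACA, 0.0511 for AGACA, 0.0472 for the intermediate class, 0.0441 for coding sequence and 0.0510 within 100 nt of a junction. A size of 0.20 left 79 sites higher and 11 lower, and 0.05 gave 484 and 121. Divided by KO, with the ratio capped where WT lay above KO, 34 were lower. With both KO values required, 26 ESC-only and 37 EB-only sites remained in the count. On the logit scale all 24 medians and all 24 named sites kept their sign. The 13 named sites with usable KO values kept theirs when divided by KO with the same cap.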

Other observations

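The 129 sites with no WT value at either stage belong to no stage comparison in WT. Of these, 117 had an ESC KO value, with a median of 0.700, and 35 had an EB KO value, with a median of 0.824. Coding sequence held 66 of them and the 3′ UTR 34. GGACA made up 73.6% of them, against 62.5% of all sites. Named examples from the gene lists, chosen after their values were seen, were Arid1b, a SWI/SNF subunit, at 0.832 in ESC KO, Med1, a Mediator subunit, at 0.361 in ESC KO, Smad5, a BMP signal transducer, at 0.0323 in ESC KO, and Myh10, a nonmuscle myosin, at 0.485 in EB KO.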
